A study of Homo sapiens with 4 samples.

Results

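To examine where FOXC1 bound around genes of inflammatory signalling in bladder cancer cells, peaks of FOXC1 chromatin immunoprecipitation with sequencing (ChIP-seq) were collected at 10 cytokine and chemokine genes. These were the neutrophil-attracting chemokine genes CXCL1, CXCL2, CXCL3, CXCL5, CXCL6 and CXCL8 of the 4q13 cluster on chromosome 4, which were treated as a single locus, and the cytokine genes IL6, LIF, IL1A and IL1B. A peak was counted for a gene when its summit, the position of highest signal, lay in the gene body or within 50 kb of either end of it. Within these windows peaks were taken by position alone, whatever their height or sequence. By this rule 11 of the 22405 peaks of FOXC1 ChIP replicate 1 and 15 of the 41789 peaks of replicate 2 lay at the 10 genes. Peaks of both replicates that overlapped by at least 1 bp were merged into a shared region, and 6 of the 13238 shared regions of the genome lay at the 10 genes.

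The study used J82, an established human bladder cancer cell line grown in DMEM with 10% FBS. The 4 libraries were 2 biological replicates of the ChIP with the antibody anti-FOXC1 (D8A6) and 2 input libraries prepared without antibody, and all came from the same line with no treatment named, so the design holds no contrast between conditions. What could be set side by side were the replicates, the member genes among themselves, and the member genes with the rest of the genome. Peak lists do not measure expression, so the labelled cell type could not be checked against marker genes, and whether any of the 10 genes was transcribed in these cells was not analysed here. Each list had been called on its own replicate, and the reads behind the lists were about 43200000 in replicate 1 and 41500000 in replicate 2.

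Chemokines with the ELR motif, to which the CXCL members belong, draw neutrophils into inflamed tissue by binding the receptors CXCR1 and CXCR2, and CXCL8 is released by urothelial cells when bacteria infect the bladder. IL-6 and LIF belong to a cytokine family that signals through the shared receptor subunit gp130 to the transcription factor STAT3. IL-1α and IL-1β bind the IL-1 receptor and switch on NF-κB, which in turn induces CXCL8, IL6 and their relatives together with the factors AP-1 and C/EBPβ. Many of these genes are also part of the secretory programme of senescent cells. FOXC1 is a forkhead transcription factor, a class that recognises short sequences built around the letters TAAACA.

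The sequences under the shared regions are shown first, because they differed in what they held at the summit. A shared region was printed when the −log10 q of its peak, the caller's measure of significance after correction for multiple testing, was at least 5 in both replicates, and 5 of the 6 shared regions passed. All are written 5′ to 3′ on the plus strand of GRCh37, the same build as hg19, and capitals mark matches of the motifs that were searched. The LIF sequence is chr22:30592650-30592850, within an intron of the long noncoding gene ENSG00000225676. Its capitals mark, read on the minus strand, an extended forkhead element, a CCAA-headed form of the motif that was read from the strongest peaks of these same data and is therefore no independent evidence for them.
LIF distal region: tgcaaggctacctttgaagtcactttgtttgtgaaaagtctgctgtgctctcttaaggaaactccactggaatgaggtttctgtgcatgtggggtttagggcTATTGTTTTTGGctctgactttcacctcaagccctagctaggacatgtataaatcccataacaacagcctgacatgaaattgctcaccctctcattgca
The CXCL8 sequence is chr4:74606103-74606235, the part of the shared region that lies upstream of the CXCL8 start site, and its capitals mark a site for AP-1, a factor made of JUN and FOS proteins.
CXCL8 upstream stretch: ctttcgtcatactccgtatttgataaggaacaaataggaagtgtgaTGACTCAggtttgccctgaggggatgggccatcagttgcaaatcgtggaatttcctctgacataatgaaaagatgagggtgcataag
The summit of the same region lay farther on, inside the gene. The stretch chr4:74606360-74606386 is shown because it joins a forkhead match, in capitals, to the start codon of CXCL8.
CXCL8 start codon: ctcactgtgtGTAAACAtgacttccaa
The CXCL6 sequence is chr4:74710086-74710286, within an intron of the longest CXCL6 transcript, and its capitals mark an AP-1 site.
CXCL6 intronic region: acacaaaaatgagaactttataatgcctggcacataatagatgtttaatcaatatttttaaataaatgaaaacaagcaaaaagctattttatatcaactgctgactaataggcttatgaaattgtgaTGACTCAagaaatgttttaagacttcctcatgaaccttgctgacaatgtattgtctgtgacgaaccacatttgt
The IL6 sequence is chr7:22757846-22758046, upstream of IL6 and within an intron of the neighbouring gene STEAP1B. It has no capitals because it held none of the motifs.
IL6 upstream region: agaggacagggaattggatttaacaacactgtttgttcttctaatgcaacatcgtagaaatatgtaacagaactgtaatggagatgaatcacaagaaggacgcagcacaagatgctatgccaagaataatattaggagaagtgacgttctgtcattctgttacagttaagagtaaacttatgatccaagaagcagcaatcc
The CXCL1 sequence is chr4:74782839-74783039, between genes on the far side of CXCL1, and its capitals mark a forkhead site and, after it, a C/EBP site.
CXCL1 distal region: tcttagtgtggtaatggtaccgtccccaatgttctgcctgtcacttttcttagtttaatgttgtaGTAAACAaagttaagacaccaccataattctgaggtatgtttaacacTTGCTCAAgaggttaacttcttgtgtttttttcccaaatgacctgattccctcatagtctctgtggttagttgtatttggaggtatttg

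FOXC1 peaks lay at all 4 loci, but the loci differed in how many peaks the replicates shared and in how tall these were. The tallest lay 49998 bp from the start of LIF, and 0.816% of all shared regions were taller in replicate 1 and 0.317% in replicate 2. CXCL8, the neutrophil chemoattractant interleukin-8, was the only member with a shared region at its start site. Shared regions of middle height lay in CXCL6, downstream of CXCL1 and upstream of IL6. No shared region was found within 50 kb of CXCL2, CXCL3, CXCL5, IL1A or IL1B. Heights are given as fold enrichment, the reads over the summit divided by the local background, each scaled as the caller did and with 1 added. Replicate 2 was scaled by 0.904 and replicate 1 was left as it was, and read numbers are given unscaled.

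The 4q13 CXCL cluster, whose windows run from chr4:74556236 to chr4:75014913 in 2 segments with a total of 434 kb, held 5 peaks in replicate 1 and 10 in replicate 2. Of these, 3 and 4 had a −log10 q of at least 5. The 24.3 kb between the segments, which belong to no member, held 0 peaks in either list. All 4 shared regions lay on the side of CXCL8, CXCL6 and CXCL1, which are read on the plus strand. On the side of CXCL5, CXCL3 and CXCL2, which are read on the minus strand, there were 0. The genome held 4.28 shared regions per Mb, so few are to be looked for in a stretch this short. Of the 4 regions, 1 was faint, with a −log10 q of 0.624 and 1.32, and their placing was not tested.

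**Figure D1:**
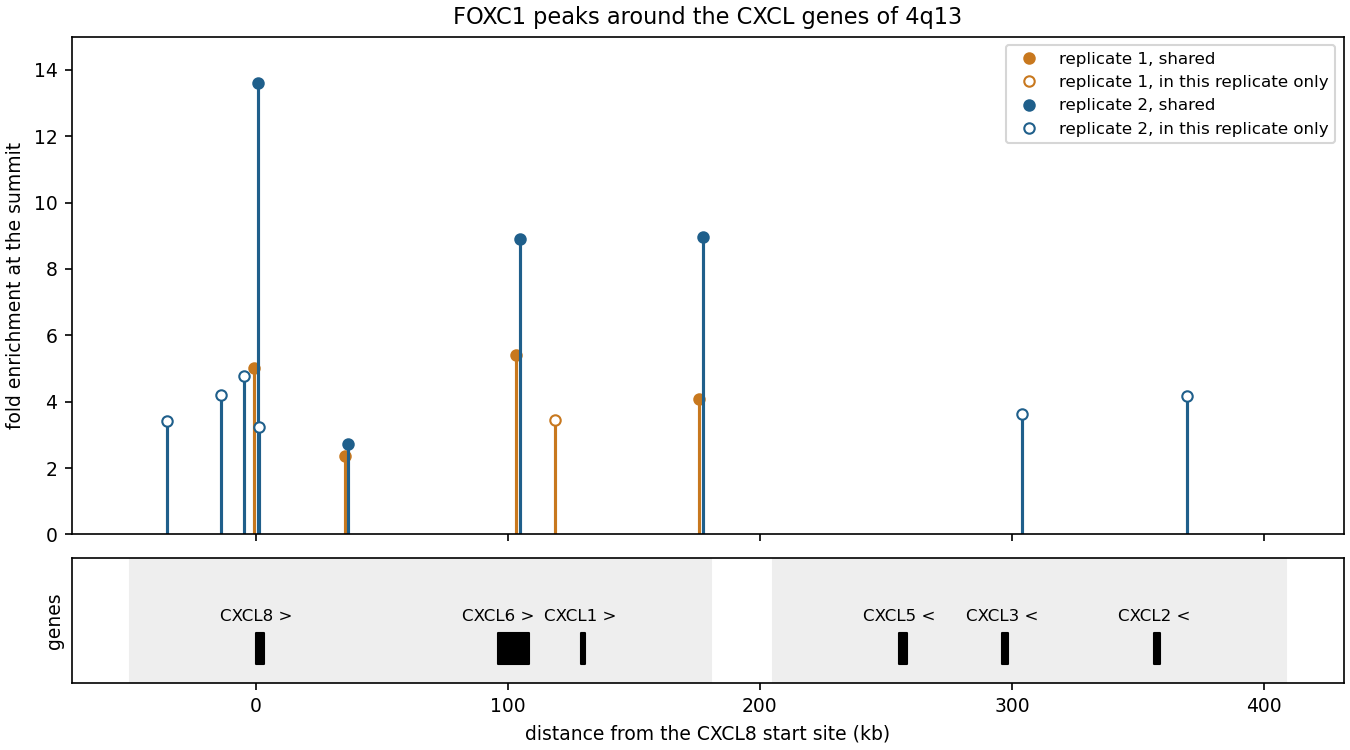
FOXC1 peaks over the 4q13 CXCL cluster, plotted as fold enrichment at the summit against the distance from the CXCL8 start site in kb, with filled circles for peaks of shared regions and open circles for peaks of 1 replicate only; the replicates are drawn slightly apart, gene bodies are black and the 50 kb windows are grey. The tallest stem stands at CXCL8, with a fold enrichment of 13.6 for replicate 2 and 5.01 for replicate 1, and no filled circle stands near CXCL5, CXCL3 or CXCL2.

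At CXCL8 (chr4:74606236-74609433, plus strand, ENSG00000169429) a shared region of 593 bp spanned the start site at chr4:74606103-74606695. Its fold enrichment was 5.01 in replicate 1 and 13.6 in replicate 2, with a mean of 9.29 ± 6.06 (SD, n = 2), and its −log10 q was 10.8 and 52.3. These heights rested on 31 reads in replicate 1 (95% Poisson interval 21.1 to 44.0) and 74 reads in replicate 2 (58.1 to 92.9). The peak was taller in replicate 2 than in replicate 1 and the counting intervals did not overlap. The summit lay 102 bp after the start site in replicate 1, in the untranslated part of the first exon, and 167 bp after it in replicate 2, in the coding part. Midway between them, the summit of the region was 134 bp after the start site. Among the 1789 shared regions within 2 kb of a protein-coding start, the CXCL8 region was taller than 71.4% in replicate 1 and 84.1% in replicate 2. Of all 20163 protein-coding genes, 0.739% had a start closer to a shared region than CXCL8 had.

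A fainter shared region lay 36.0 kb downstream of the CXCL8 start, between genes at chr4:74642038-74642513. Its fold enrichment was 2.35 in replicate 1 and 2.74 in replicate 2 (2.54 ± 0.276, SD, n = 2), on 14 and 15 reads. The −log10 q was 0.624 and 1.32, and the replicates' summits were 259 bp apart, against a median of 28 bp over all shared regions. Each peak had a rank by −log10 p within its own list, and a shared region was placed by the poorer rank of its peaks. In that order the fainter region stood at 13054 of the 13238 shared regions, so it belongs to the weakest of them. It was the only member region whose counting intervals overlapped between the replicates, 7.65 to 23.5 reads and 8.40 to 24.7 reads. CXCL8 also had 4 further peaks in replicate 2 that were not in replicate 1. The strongest of them, at chr4:74600828-74601290, lay 5.20 kb upstream of the start with a fold enrichment of 4.77, a −log10 q of 7.08 and 24 reads, and held a GTAAACA within 50 bp of its summit.

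CXCL6 (chr4:74702357-74714781, plus strand, ENSG00000124875), a chemokine close to CXCL5 in sequence, had a shared region inside the gene at chr4:74709910-74710484, with its summit 7.83 kb after the start. Its fold enrichment was 5.42 in replicate 1 and 8.91 in replicate 2 (7.16 ± 2.46, SD, n = 2), with a −log10 q of 10.4 and 31.3. The reads over the summit numbered 27 (17.8 to 39.3) and 58 (44.0 to 75.0). Replicate 2 was again the higher, with intervals that did not overlap, and the summits of the replicates lay 58 bp apart. The region is an intron of the longest annotated CXCL6 transcript only, and the shorter transcripts end before it. The same region lies within 50 kb of CXCL1, 24.9 kb upstream of its start, so the counts for CXCL6 and CXCL1 are not independent of each other.

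CXCL1 (chr4:74735110-74737025, plus strand, ENSG00000163739), the chemokine also known as GROα, had no peak of either replicate in its gene body. Besides the region in CXCL6, a shared region at chr4:74782666-74783302 lay 47.8 kb after its start, between genes. The fold enrichment there was 4.07 in replicate 1 and 8.96 in replicate 2 (6.51 ± 3.46, SD, n = 2), on 20 reads (12.2 to 30.9) and 46 reads (33.7 to 61.4). The −log10 q was 5.16 and 25.3, and the summits were only 9 bp apart. This was the nearest shared region for CXCL5, CXCL3 and CXCL2 as well, but at 81.5, 122 and 182 kb from their starts it fell outside their windows. Replicate 1 had a further peak, absent from replicate 2, 9.43 kb upstream of CXCL1 with a fold enrichment of 3.46.

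The remaining 3 chemokine genes of the cluster, which like CXCL1 act through CXCR2, had 0 peaks in replicate 1. CXCL3 (chr4:74902306-74904524, minus strand, ENSG00000163734) had a replicate 2 peak 5.09 kb upstream of its start with a fold enrichment of 3.63 and a −log10 q of 3.62, on 18 reads. The same peak was the only peak within 50 kb of CXCL5 (chr4:74861359-74864394, minus strand, ENSG00000163735). CXCL2 (chr4:74962757-74964913, minus strand, ENSG00000081041) had a replicate 2 peak 10.1 kb upstream with a fold enrichment of 4.18 and a −log10 q of 4.90, on 21 reads. Both peaks fell short of a −log10 q of 5, and neither was seen in the other replicate. Of all protein-coding genes, 49.4%, 61.6% and 73.4% had a start closer to a shared region than CXCL5, CXCL3 and CXCL2 had, respectively.

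IL6 (chr7:22765503-22771621, plus strand, ENSG00000136244), the acute-phase cytokine, had 4 peaks in replicate 1 and 2 in replicate 2, with 1 shared region. This region, at chr7:22757690-22758242, lay 7.56 kb upstream of the IL6 start, and IL6 had the closest start of any annotated gene although the region is also an intron of STEAP1B. Its fold enrichment was 5.03 in replicate 1 and 10.6 in replicate 2 (7.79 ± 3.91, SD, n = 2), with a −log10 q of 9.82 and 37.6. The reads over the summit were 28 (18.6 to 40.5) and 61 (46.7 to 78.4), so replicate 2 was the higher without overlap of the intervals. Over the gene body the replicates had different peaks. Replicate 2 had a peak in a noncoding exon, 2.73 kb after the start, with a fold enrichment of 3.67 and a −log10 q of 5.26 on 26 reads, where the local background was 1.51 times that of the genome. Replicate 1 instead had weaker peaks at the end of the gene, in the untranslated part of the last exon, with a fold enrichment of 2.52 and 2.71. The gene body peaks of IL6 did not overlap between the replicates.

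LIF (chr22:30636442-30642748, minus strand, ENSG00000128342), leukaemia inhibitory factor, had the tallest shared region of the 10 genes. It covered 1336 bp at chr22:30591828-30593163, 43.7 kb beyond the end of the gene body and 49998 bp from the start, and LIF had the closest start of any protein-coding gene. The region lies in an intron of ENSG00000225676, a long noncoding gene at chr22:30578807-30603184 on the minus strand. Its fold enrichment was 30.0 in replicate 1 and 62.8 in replicate 2 (46.4 ± 23.2, SD, n = 2). The −log10 q was 174 and 435. The reads over the summit numbered 154 (131 to 180) and 329 (294 to 367), and the summits of the replicates were 4 bp apart. Of the 13238 shared regions, 108 were taller in replicate 1 and 42 in replicate 2. In each replicate the counting interval of LIF lay above that of every other member region. The promoter side of LIF was faint by comparison, with a replicate 2 peak 6.29 kb upstream of the start that had a fold enrichment of 2.68 and a −log10 q of 0.875 on 13 reads.

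IL1A (chr2:113531502-113542070, minus strand, ENSG00000115008) and IL1B (chr2:113587328-113594393, minus strand, ENSG00000125538), which encode the alarmin IL-1α and the secreted IL-1β, lie side by side and their windows join to 163 kb. They shared the same 2 peaks, and neither of these was in both lists. Replicate 1 had a peak between the genes, 3.66 kb past the end of IL1B, with a fold enrichment of 2.35 and a −log10 q of 0.624 on 14 reads. Replicate 2 had a peak 9.09 kb upstream of IL1A, with a fold enrichment of 4.03 and a −log10 q of 5.81 on 25 reads. At both places the local background was 1.29 times that of the genome. The nearest shared regions lay 140 kb from the IL1A start at chr2:113401689-113402500, with a fold enrichment of 4.40 and 17.2, and 176 kb from the IL1B start at chr2:113770267-113770852, with 6.84 and 15.5.

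**Figure D2:**
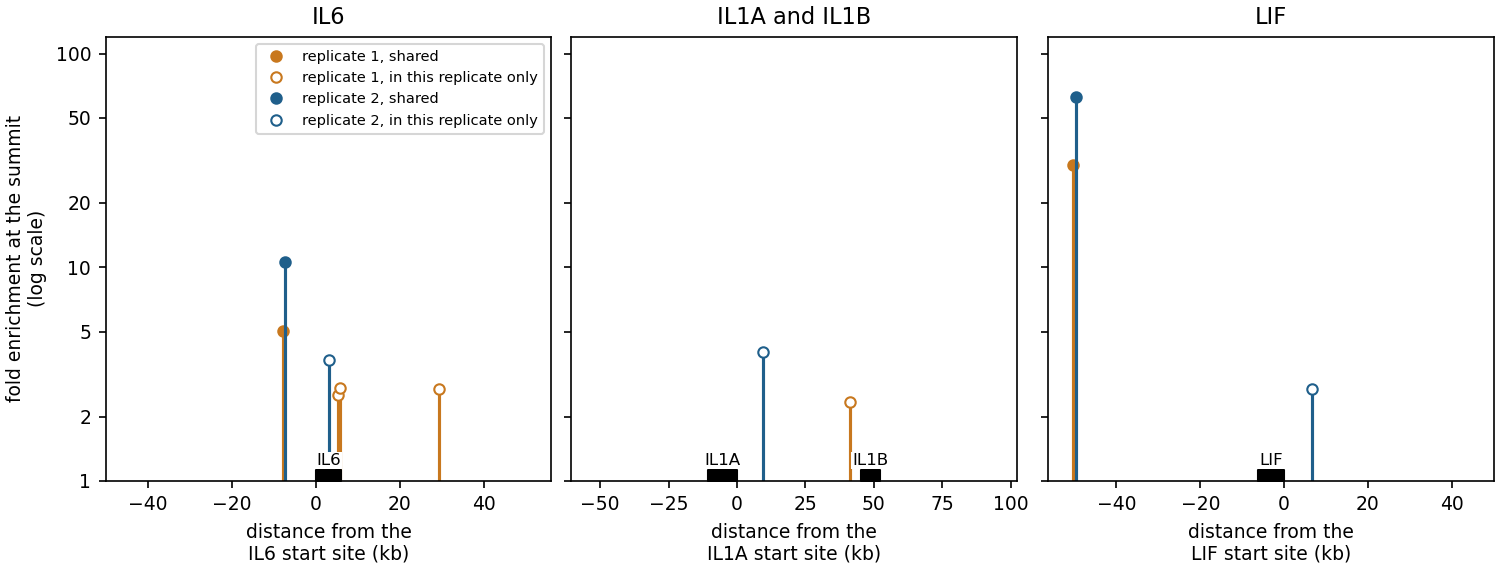
FOXC1 peaks over the IL6, IL1A and IL1B, and LIF windows, plotted as fold enrichment at the summit on a log scale against the distance from the start site of IL6, IL1A or LIF in kb, with filled circles for shared regions, open circles for peaks of 1 replicate only and gene bodies in black; the replicates are drawn slightly apart. The LIF region reaches 30.0 and 62.8, the IL6 region 5.03 and 10.6, and the IL1A and IL1B panel holds no filled circle.

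The window of 50 kb decided which regions counted. The CXCL1 distal region and the LIF region were the farthest inside it, at 45.9 and 43.7 kb from the gene bodies. Just outside, a shared region at chr7:22707258-22707841 lay 7.97 kb beyond the IL6 window with a fold enrichment of 5.70 and 13.8. Another lay 15.5 kb beyond the LIF window at chr22:30707936-30708654, with 23.1 and 49.3. Beyond the CXCL8 end of the 4q13 windows, a region 28.8 kb away had a fold enrichment of 10.7 and 13.3.

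The share of members with a region nearby was close to that of all protein-coding genes and above that of genes of like length. A shared region lay within 50 kb of 5 of the 10 members, and within 50 kb of 46.6% of all 20163 protein-coding genes. Long genes reach more regions, and among the 6164 protein-coding genes no longer than CXCL6, the longest member at 12425 bp, the share was 32.7%. When a −log10 q of at least 5 was required in both replicates, the same 5 members remained, CXCL8, CXCL6, CXCL1, IL6 and LIF, against 29.3% of all protein-coding genes and 17.4% of the genes of that length. Within 2 kb of a start site, 1 of 10 members had a shared region, CXCL8, against 3.89% of the genes of that length. Because CXCL6 and CXCL1 shared a region and 6 of the 10 members are neighbours, the 10 members are not independent of each other, and no test was made of these counts.

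By length of sequence, the 810 kb of member windows held 13.6 peaks per Mb in replicate 1 and 18.5 in replicate 2. Over the full length of its chromosomes, with unsequenced gaps counted, the genome held 7.24 and 13.5, so its densities are somewhat low. Shared regions numbered 7.41 per Mb in the member windows and 4.28 per Mb in the genome. The 4q13 cluster held 9.21 shared regions per Mb, the IL6 window 9.42 and the LIF window 9.41, while the IL1A and IL1B window held 0. With 1 region each in the windows of IL6 and LIF, these densities rest on very few regions.

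The replicates differed in height over the whole genome, and the member regions followed the same direction. The median fold enrichment over all shared regions was 3.79 for replicate 1 and 6.71 for replicate 2, and replicate 2 was a median of 1.69 times as high as replicate 1, with quartiles of 1.31 and 2.14. Of the member regions, CXCL8 at its start had the highest ratio, 2.71, above the upper quartile. The CXCL1 distal region came next, and the ratio was 2.10 at IL6, 2.09 at LIF, 1.64 at CXCL6 and 1.17 at the CXCL8 distal region. All 6 were higher in replicate 2. In rank among the shared regions, taken as above by the worse of the replicates' ranks by −log10 p, LIF stood at 152. CXCL8 stood at 3311, IL6 at 3529, CXCL6 at 3656 and the CXCL1 distal region at 5382. The counting intervals of CXCL8, IL6, CXCL6 and the CXCL1 distal region overlapped in each replicate. Overlap of intervals does not show equal heights, and differences among these 4 were not tested.

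**Figure D3:**
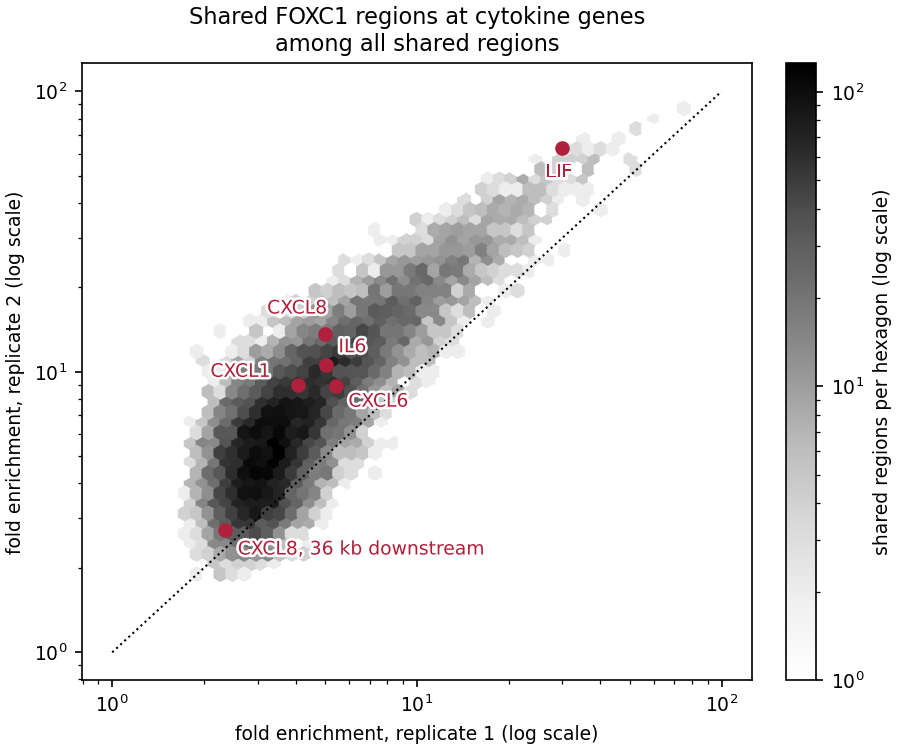
Fold enrichment of each of the 13238 shared regions in replicate 2 against replicate 1, both on log scales, with grey hexagons shaded by the number of regions, the 6 member regions in red and a dotted line of equal height. All 6 red points lie above the line, with LIF at 30.0 and 62.8 near the upper end of the cloud and the CXCL8 distal region at 2.35 and 2.74 near its lower end.

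**Figure D4:**
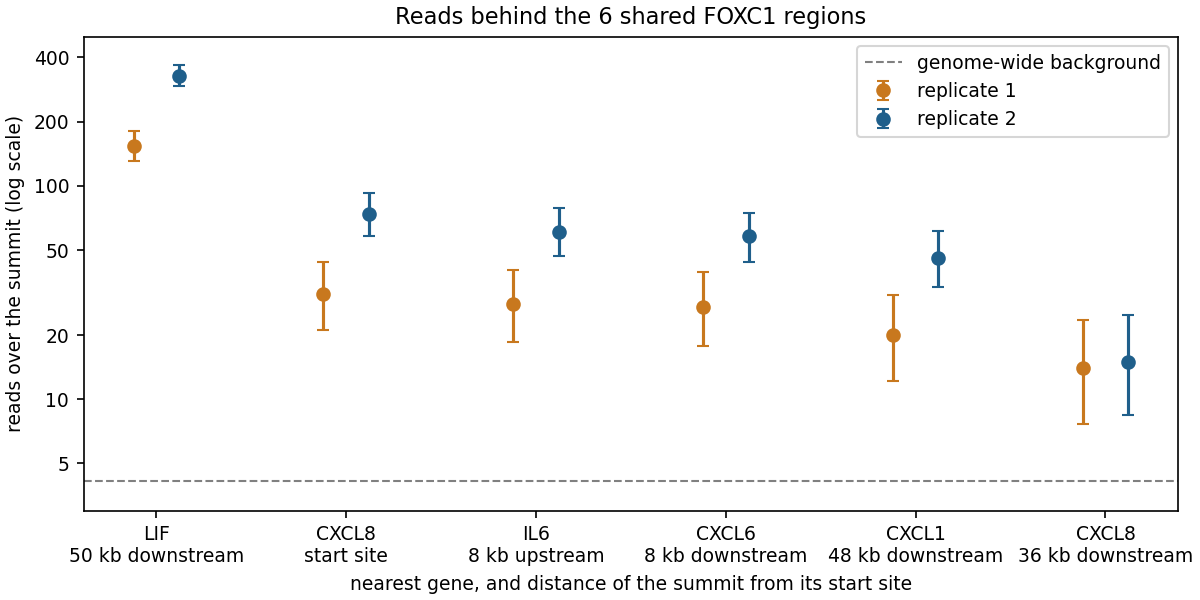
Reads over the summit of the 6 shared regions at the members, on a log scale, with 95% Poisson intervals for replicate 1 and replicate 2 and a dashed line at the genome-wide background of 4.16 reads. The intervals of all 6 regions lie above the background, but peaks were called for exceeding their background, so this adds no evidence. The intervals of the replicates overlap only at the CXCL8 region 36.0 kb downstream.

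Peaks listed in 1 replicate only were lower in that replicate than every shared region other than the CXCL8 distal one. In replicate 1 there were 5 at the members, with a fold enrichment of 2.35 to 3.46, 12 to 17 reads and 0 with a −log10 q of at least 5. In replicate 2 there were 9, with a fold enrichment of 2.68 to 4.77, 13 to 26 reads and 3 with a −log10 q of at least 5. Those 3 lay upstream of CXCL8, in the IL6 gene body and upstream of IL1A. For comparison, the median peak of the whole list had a fold enrichment of 3.02 on 18 reads in replicate 1 and 3.63 on 23 reads in replicate 2. Of the peaks in 1 replicate only, 1 of 5 in replicate 1 and 6 of 9 in replicate 2 stood at or above their list's median fold enrichment.

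To examine what lay under the summits, 50 bp to either side of each shared summit were searched on both strands. The forkhead consensus was taken as ATAAACA or ATAAATA or GTAAACA or GTAAATA. It was present in 48.7% of all shared regions, against 10.8% of stretches of the same length 500 bp downstream, and in 2 of the 6 member regions, CXCL8 at its start and CXCL1 distal. Both held the form GTAAACA, present in 20.8% of all shared regions and 1.56% of the downstream stretches. In CXCL8 it lay at chr4:74606370-74606376, 3 bp from the summit of the region and 35 and 30 bp from the summits of the replicates. Its last base, at 74606376, is the first base of the CXCL8 coding sequence, as the start codon stretch printed above shows. In the CXCL1 distal region it lay at chr4:74782904-74782910, 32 bp from the summit.

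The tallest region held none of the 4 forkhead sequences near its summit. The LIF region carried the extended forkhead element at chr22:30592752-30592763 on the minus strand, 7 bp from the summit. This element was within 50 bp of the summit in 7.28% of all shared regions and in 0.506% of the downstream stretches. Because the element was read from the strongest peaks of these same data, neither its presence at LIF nor these shares are independent evidence. At CXCL6 the match nearest the summit was the AP-1 site TGACTCA at chr4:74710213-74710219, 30 bp from the summit of the region. It lay 1 bp from the summit of replicate 1 but 59 bp from that of replicate 2, which is outside 50 bp. AP-1 letters, TGACTCA or TGAGTCA, were near 16.6% of all shared summits and 1.93% of the downstream stretches, and near 1 of the 6 member summits. The other AP-1 sites were farther off, 156 bp from the summit in the CXCL1 distal region, 218 bp at CXCL8 and 482 bp at LIF.

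The AP-1 site printed in the CXCL8 upstream stretch lies 87 bp before the start. Stretches of 133 bases ending at the start of each of the 20163 protein-coding genes held AP-1 letters in 2.02% and forkhead letters in 5.12%. The C/EBP letters TTGCNNAA were near 1 of the 6 member summits, as TTGCTCAA 15 bp from the summit of the CXCL1 distal region, and near 8.50% of all shared summits against 5.51% downstream. The letters ttgcaaat in the printed CXCL8 upstream sequence differ from this form in the last base, so they do not count as a match. The κB consensus of NF-κB was searched in its strict form, which opens with GGG and closes with CC, so the letters ggaatttcc in the printed CXCL8 upstream sequence do not count as a match. This strict form was near none of the 6 and near 1.04% of all shared summits against 0.884% downstream. The IL6 region and the fainter CXCL8 region held none of these motifs within 50 bp of the summit taken midway between the replicates. This says only that these letters are not in those windows. In the fainter CXCL8 region the C/EBP form TTGCCAAA lay 14 bp from the summit of replicate 2 and 245 bp from that of replicate 1. In base composition, 201 bp around the summit held 44.3% G and C at LIF, 37.8% at IL6 and at the CXCL1 distal region, and 30.3% at CXCL6, against a median of 40.3% over all shared regions.

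The wider pathway was described with a list of 52 genes, chosen by role. A shared region lay within 50 kb of 31 of them, or 59.6%, and 20, or 38.5%, had a region with a −log10 q of at least 5 in both replicates, beside 46.6% and 29.3% of all protein-coding genes. Of the 31 listed genes no longer than CXCL6, 18 had a shared region (58.1%) and 12 had one at the stricter level (38.7%), beside the 32.7% and 17.4% of all genes of that length. The 31 genes rested on 45 distinct regions, and the list was chosen with results of these data known, so these shares are a description. All 5 chemokine receptor genes, among them CXCR1 and CXCR2 that bind the CXCL members, had 0 peaks in both lists. In all, 10 of the 52 genes had 0 peaks in both lists, and the share over all protein-coding genes was not computed. CXCR1 and CXCR2 are neighbours whose windows overlap, so they are not independent of each other. Of the 7 CXC chemokine genes outside 4q13, 6 had a region at the stricter level, CXCL14 being the exception, again beside 29.3% of all protein-coding genes. Of these 6, the neighbours CXCL9, CXCL10 and CXCL11 all counted the region chr4:76972461-76973021.

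Ranked by the lower −log10 q, LIFR, CXCL16 and OSM had the strongest regions of the list. LIFR, the receptor for LIF, had a region in its own intron at chr5:38598798-38599801, 9.20 kb from its start, with a fold enrichment of 38.1 and 51.5 in the replicates. OSM, the gene for oncostatin M, lies next to LIF inside its window, and its region in an intron of TBC1D10A, 45.4 kb from its start, had 23.1 and 49.3. It is the region just beyond the LIF window named above. Of the 5 ligand genes of the family, 4 had a shared region and 2 had one at the stricter level, and the 5 receptor genes gave the same counts of 4 and 2. Over all protein-coding genes, which include many shorter than LIFR, the shares were 46.6% and 29.3%. STAT3, the factor these receptors activate, had an intronic region of 8.45 and 12.7.

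Among chemokines, CXCL16, a membrane-bound ligand of CXCR6, had a region 18.3 kb from its start with a fold enrichment of 32.7 and 72.3. CXCL13, the attractant of B cells, had 18.0 and 25.7 at 125 kb from its start, which lies within 50 kb of its long gene body. PF4 and PPBP, platelet chemokine genes next to CXCL5, had 0 peaks in their own windows, and PF4V1 shared the CXCL6 region, 8.83 kb upstream of its start. CEBPB, the gene for C/EBPβ, had 5 shared regions, the strongest 3.17 kb from its start with 6.46 and 20.4. In the IL-1 family, IL36B and IL36G counted the same region, 39.8 kb from each start, which is also the nearest shared region to IL1B. Of the 6 listed IL-1 family genes 3 had a shared region and 2 had one at the stricter level, and of the 4 IL-1 receptor genes 1 had a shared region and 0 had one at the stricter level. Of the 11 genes of NF-κB and response regulators, 8 had a shared region and 4 had one at the stricter level (72.7% and 36.4%). Beside these IL-1 and NF-κB groups, the shares over all protein-coding genes were 46.6% and 29.3%. Some of the 11 are long, such as NFKB1 at 115973 bp, and long genes reach more regions.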

How the data were processed

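FOXC1 ChIP-seq was performed by the authors on 2 biological replicates of J82 cells, with single-end reads of 75 bp. The study's methods give alignment to hg19 by bwa and peak calling by MACS2 2.2.7.1 with input as control, within the ENCODE3 pipeline, and name the IDR tool for reproducible peaks, but the lists used here were each called on 1 replicate. The submitters' processing notes also name bedtools. Files of the 2 input libraries, H3K27ac data and RNA-seq were not analysed here. Samples were grouped by their titles.

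Each deposited peak carried its interval and summit offset, a score that the authors' caller derives from the p-value, the fold enrichment as a ratio of summit pileup to local background with a pseudocount of 1, and the −log10 p and −log10 q that the authors' caller gave. The filter behind the deposited lists is not given in the sources used here. The fold enrichment and q columns are the caller's values against input, not a comparison of conditions, and were used to describe and rank peaks. Of the listed peaks, 42 in replicate 1 and 43 in replicate 2 lay off chromosomes 1 to 22, X and Y and were left out.

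Genes were taken from GENCODE 44 on GRCh37, and peak ends were checked to lie within its chromosomes. Overlap of at least 1 bp made a shared region, whose summit lies midway between those of the strongest peak of each replicate. Whole reads over each summit were solved from its fold enrichment and −log10 p, which succeeded for 100% of the peaks with a residual under 0.001 of −log10 p. Totals of about 43200000 and 41500000 reads follow from the genome-wide background of 4.16 and 4.15 reads, a genome size of 2.7 Gb and fragments of 260 and 270 bp, taken from the smallest peak widths. Intervals are exact Poisson intervals at 95% and cover counting error only. No molecular identifiers are named for these libraries, so reads may include PCR copies.

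Every shared region at the 10 genes is described, and peaks of 1 replicate only by counts and range with the strongest of each locus. Of the 52 pathway genes, the 8 with the strongest regions by the lower −log10 q and those inside a member window were named. Other genes or peaks named in passing were chosen after their values were seen. The members and lists were chosen with earlier results of these data known. All comparisons are descriptions, with no test. Other windows, height limits, overlap rules and each replicate alone were tried as alternatives. Scripts used Python 3.11.15, NumPy 2.4.6, pandas 2.3.3 and SciPy 1.17.1 and were tested on simulated data.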

Additional observations from a re-analysis of the deposited data

How the results depend on the processing

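Of 29 alternative values, 16 stayed within 1.5 times the value reported and 13 moved further. With windows of 10 kb, peaks at the members numbered 7 in replicate 1 and 9 in replicate 2 in place of 11 and 15, and shared regions 3 in place of 6, at 3 genes, CXCL8, CXCL6 and IL6, in place of 5. With windows of 100 kb, replicate 2 had 27 peaks. A limit of 5 on −log10 q left 5 in replicate 1 and 8 in replicate 2, and only those with a fold enrichment of at least 5 left 4 and 5. Under both limits 5 genes kept a shared region. With summits required within 100 bp of each other, the faint CXCL8 distal region was lost and 5 shared regions remained. Each replicate alone gave 7 to 10 genes with a peak, 7 in replicate 1 and all 10 in replicate 2. The 5 genes with a shared region therefore depend on requiring both lists. For peaks of a single list, and for windows of other widths, the share over all protein-coding genes was not computed. These counts of genes are therefore no result about the members. With each replicate alone, peaks with the forkhead consensus numbered 5 in either list, a range of 5 to 5, and peaks near a start site 1 to 3. No paired analysis was possible because no result comes from a test.

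With 2 replicates, and 12 to 17 reads behind the peaks of replicate 1 alone, a gene without a shared region is one where none was listed. Whether FOXC1 bound more weakly at such a gene was not tested.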
